A study of Homo sapiens with 2 samples.

Results

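ATP-dependent chromatin remodellers are the enzymes that use ATP to slide, eject or restructure nucleosomes, together with the subunits that target and regulate them. The genes described here were taken by symbol: every gene whose symbol begins with SMARCA to SMARCE, CHD followed by a digit, ARID1 to ARID5 or INO80, together with BPTF, PBRM1, ACTL6A, ACTL6B, BAZ1A and BAZ1B. This gave 43 of 19775 genes with a probe set that names a single gene. Of these, 15 belong to SWI/SNF, 10 to the CHD family, 5 to ISWI and 5 to INO80. The other 8 fit the symbol rule but belong to none of these groups: ARID3A, ARID3B, ARID4B, ARID5A and ARID5B, the SNF2-family enzymes SMARCAD1 and SMARCAL1, and the non-coding SMARCAD1-DT. The set therefore holds more than remodellers: the ARID3 and ARID5 proteins are DNA-binding factors and ARID4B belongs to a histone deacetylase complex.

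The study read RNA from MKN28, an established human gastric adenocarcinoma line, on 1 Affymetrix array per condition. One sample is labelled as overexpressing Sox2, from cells given a Sox2 lentivirus and then kept in puromycin at 2 µg/mL, and the other is labelled control. The sources used here do not say whether the control cells received a virus or puromycin, whether the selected cells were a clone or a pool, or which promoter drove Sox2. Both samples share the line, the medium and the array type, so virus, selection and Sox2 cannot be told apart, and each difference below is between 2 arrays with no replicate error.

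SWI/SNF complexes pair a catalytic subunit, SMARCA2 or SMARCA4, with a core and with an ARID protein that sets the complex type. They loosen chromatin at enhancers and promoters and are among the complexes most often mutated in gastric and other carcinomas. ISWI enzymes space nucleosomes evenly. CHD enzymes, CHD1L apart, carry chromodomains and include the motor of the NuRD repressor complex. INO80 remodels nucleosomes at promoters, replication forks and DNA breaks.

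The spread at hand was technical. Log2 differences between the arrays had a robust SD of 0.28 per probe set, estimated from 3471 genes with 2 probe sets past a filter on dim signal. The filter kept a gene when the higher of its 2 intensities reached 34.25, the median of all values, and 14253 genes passed. SOX2 gave no clear check of the labels: its 4 probe sets read, Sox2 array first, 172 and 123, 38.4 and 39.1, 27.4 and 22.1, and 11.4 and 15.7. Their log2 differences were 0.49, -0.023, 0.31 and -0.46, so the direction of every difference rests on the labels. The bacterial poly-A spike-ins lay below 0 by all 24 of their probe sets (median -0.75 on the log2 scale), against a median of -0.0027 over the whole array. Of the epithelial markers, 5 of 6 passed the filter but EPCAM was low at 4.96 and 6.32, and the summed intensity of the 6 was 393 and 435. Fibroblast markers summed to 1593 and 1466 with 6 of 7 past the filter, endothelial markers to 251 and 262 with 4 of 4, and leukocyte markers to 133 and 126 with 1 of 3. No listed marker differed by 2-fold, and the part of other cell types in the differences below was not tested.

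Read by its brightest probe set, no remodeller gene differed by 2-fold between the arrays. Of the 43 genes, 36 passed the filter, and of these 0 were at least 2-fold higher and 0 at least 2-fold lower, beside 2.05% and 0.645% of all genes past the filter. At 1.5-fold, 5 were higher in the array labelled Sox2 and 0 lower, beside 6.46% and 3.77% of all genes. The 5 were CHD1, SMARCA2, ARID2, CHD8 and ARID1A. Of the 36, 24 lay above 0, which is 66.7% beside 49.6% of all genes, and their median log2 difference was 0.18 beside -0.0032. Without the filter, 28 of 43 lay above 0, beside 49.5% of all genes, with a median of 0.17.

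The genes that did not pass were ACTL6A, CHD9, SMARCA1, BAZ1A, ARID4B, SMARCAD1 and SMARCAD1-DT. A further 2 passed through 1 array alone, SMARCE1 through the array labelled Sox2 and CHD2 through the control. The remaining 34 reached the filter in both arrays.

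**Figure D1:**
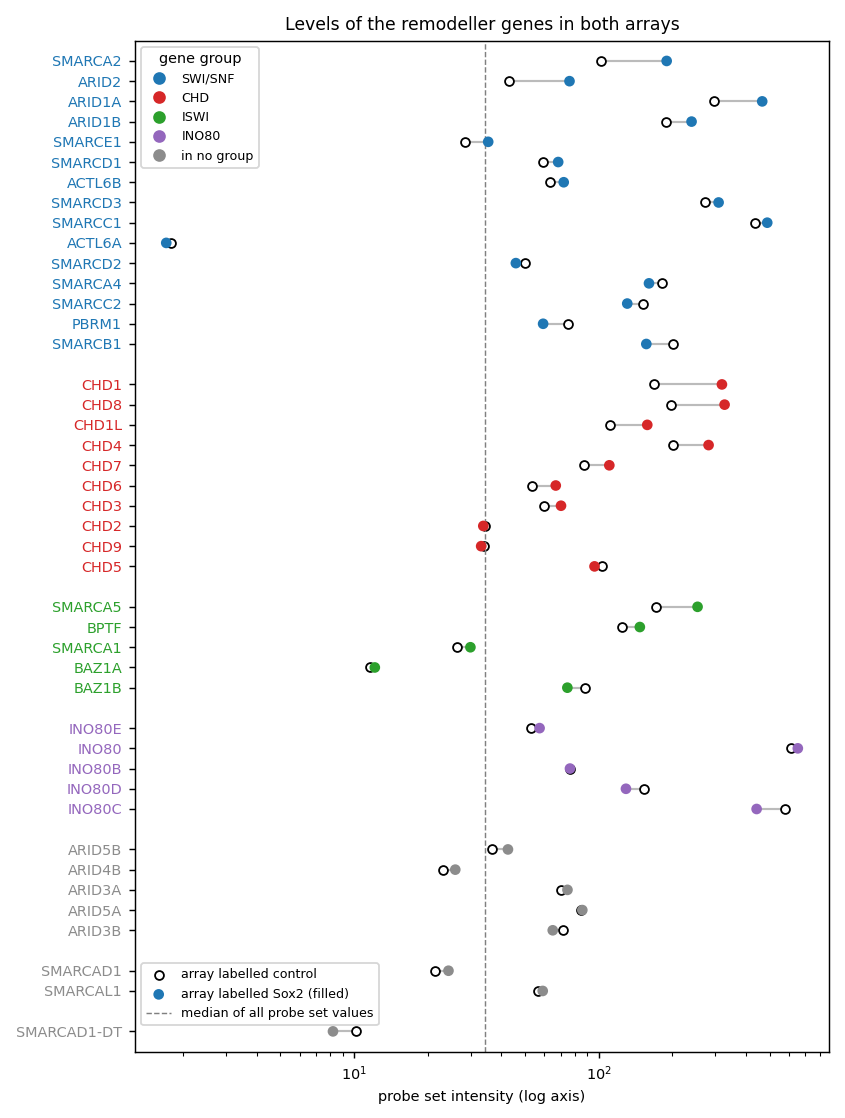
Intensity (log axis) of each of the 43 genes by its brightest probe set in the array labelled control (open circles) and the array labelled Sox2 (filled circles), coloured by gene group, with the median of all probe set values as a dashed line. CHD1, CHD8, SMARCA2, ARID2 and ARID1A have the widest gaps to the right, INO80 and INO80B almost none, and 7 genes lie left of the line in both arrays.

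In SWI/SNF, 9 of 14 genes past the filter lay above 0, with a median log2 difference of 0.19 and a range from -0.36 to 0.89. The catalytic subunits differed from each other. SMARCA2 (BRM), an ATPase of the complex, read 190 in the Sox2 array and 102 in the control, 1.86-fold higher. All 5 of its probe sets past the filter were higher, but by unequal amounts, with a median log2 difference of 0.30. Names ending in _x_at belong to the brightest and to the one at 1.69. A second probe set read 150 and 121 (log2 difference 0.30), others 93.7 and 87.9 (0.092) and 57.8 and 52.5 (0.14), and another 81.6 and 25.2 (1.69). The last was the only probe set of the whole group of genes to pass both the filter and a 2-fold difference, and it passed the filter through the Sox2 array alone. The dimmest SMARCA2 probe set, below the filter, went the other way at 4.25 and 10.0.

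SMARCA4 (BRG1), the alternative ATPase, read 161 and 181, a log2 difference of -0.17. Its 7 probe sets past the filter, the brightest of which is named _x_at, were split, 4 higher and 3 lower. Their median was 0.0021. A higher one, at 41.1 and 30.4, passed through the Sox2 array alone and so had to be higher. The arrays therefore gave no direction for SMARCA4. No test of SMARCA2 against SMARCA4 is possible with 1 array per condition.

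The ARID subunits, which distinguish the BAF from the PBAF form, all lay above 0 by their brightest probe sets. ARID1A, the BAF subunit most often lost in gastric carcinoma, read 466 and 297, 1.57-fold higher, and 3 of its 4 probe sets were higher while the other read 80.0 and 83.1. ARID1B, its alternative in BAF, read 240 and 189 (log2 difference 0.34). The mean over all 7 ARID1B probe sets was smaller, 0.065, and 5 of the 7 were higher. ARID2, the PBAF counterpart, read 76.0 and 43.2, 1.76-fold higher. A second ARID2 probe set past the filter read 56.4 and 32.0, a log2 difference of 0.82 by both. That second one passed through the Sox2 array alone and so had to be higher. The 2 ARID2 probe sets below the filter were also higher, at 6.68 and 5.57 and at 7.52 and 4.02. ARID2 was thus higher by 4 of 4 probe sets, but only its brightest reached the filter in both arrays. PBRM1, the polybromo subunit that shares PBAF with ARID2, went the other way, at 59.3 and 75.3 (-0.34). All 4 of its probe sets past the filter lay below 0, though 1 of them read 48.3 and 48.4. Another, at 30.2 and 35.5, passed through the control array alone and so had to be lower. A dim PBRM1 probe set read 7.84 and 4.43.

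The core subunits were mixed and their differences small. SMARCB1, the tumour suppressor of rhabdoid tumours, read 157 and 201, a log2 difference of -0.36, and its other probe sets read 61.0 and 63.7 and, below the filter, 21.9 and 30.4. All 3 were lower. SMARCC1 and SMARCC2, the paired scaffold subunits, lay on opposite sides. SMARCC1 read 489 and 434 (0.17), with 0.69 and 0.40 by its other probe sets past the filter. The one at 0.40 passed through the Sox2 array alone and so had to be higher. SMARCC2 read 131 and 151 (-0.21), with -0.12 by its other one. SMARCD1 read 68.3 and 59.2, SMARCD2 45.9 and 49.9, and SMARCD3 309 and 272, none beyond 1 technical SD. These 3 genes encode alternative BAF60 subunits. SMARCE1, the BAF57 subunit, read 35.4 and 28.5. The actin-like subunits gave little: ACTL6B, the neuronal form, read 72.0 and 63.0 by 1 probe set and 46.6 and 55.6 by the other, and ACTL6A, which SWI/SNF shares with INO80, read 1.71 and 1.79, too near the lowest deposited value of 1 to say anything of its level.

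The CHD family had the highest median of the 4 groups. Of 9 genes past the filter, 7 lay above 0, with a median log2 difference of 0.35 and a range from -0.097 to 0.93, and of all 10 the median was 0.34. CHD1, which binds the methylated histone mark of active promoters, had the largest difference of all 43 genes, at 319 in the Sox2 array against 168, 1.90-fold higher. That value rests on 1 probe set, since the other CHD1 probe set was near the floor at 3.31 and 7.14 and went the other way. CHD8, a chromodomain enzyme that binds beta-catenin, read 327 and 198, 1.65-fold higher, by its 1 probe set. CHD4, the ATPase of NuRD, gave similar differences by its 3 probe sets: 281 and 200, 160 and 125, and 109 and 74.8, which are log2 differences of 0.49, 0.36 and 0.54. All 3 lay above 0.

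The other NuRD enzymes differed less. CHD3, the close relative of CHD4, read 70.2 and 59.6 (0.24), with 0.32 by its second probe set. CHD5, a mainly neural paralogue, read 96.2 and 103 (-0.097), with -0.44 by its second. Thus 2 of the 3 NuRD motors lay above 0 by all their probe sets and CHD5 below by both. The second CHD5 probe set passed the filter through the control array alone and so had to be lower. CHD1L, a PARP-dependent remodeller of DNA repair, read 158 and 112 (0.50), and 2 of its 3 probe sets past the filter were higher. Among the CHD6 to CHD9 class, CHD7, the gene mutated in CHARGE syndrome, read 111 and 86.8 (0.35) and CHD6 66.8 and 53.5 (0.32). The second CHD7 probe set past the filter read 65.6 and 47.6. The 4 CHD6 probe sets were split, 2 higher and 2 lower, with a mean log2 difference of 0.043. CHD2, at 33.8 and 34.4, and CHD9, at 33.1 and 33.9, lay at the filter and showed no difference beyond the technical SD.

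**Figure D2:**
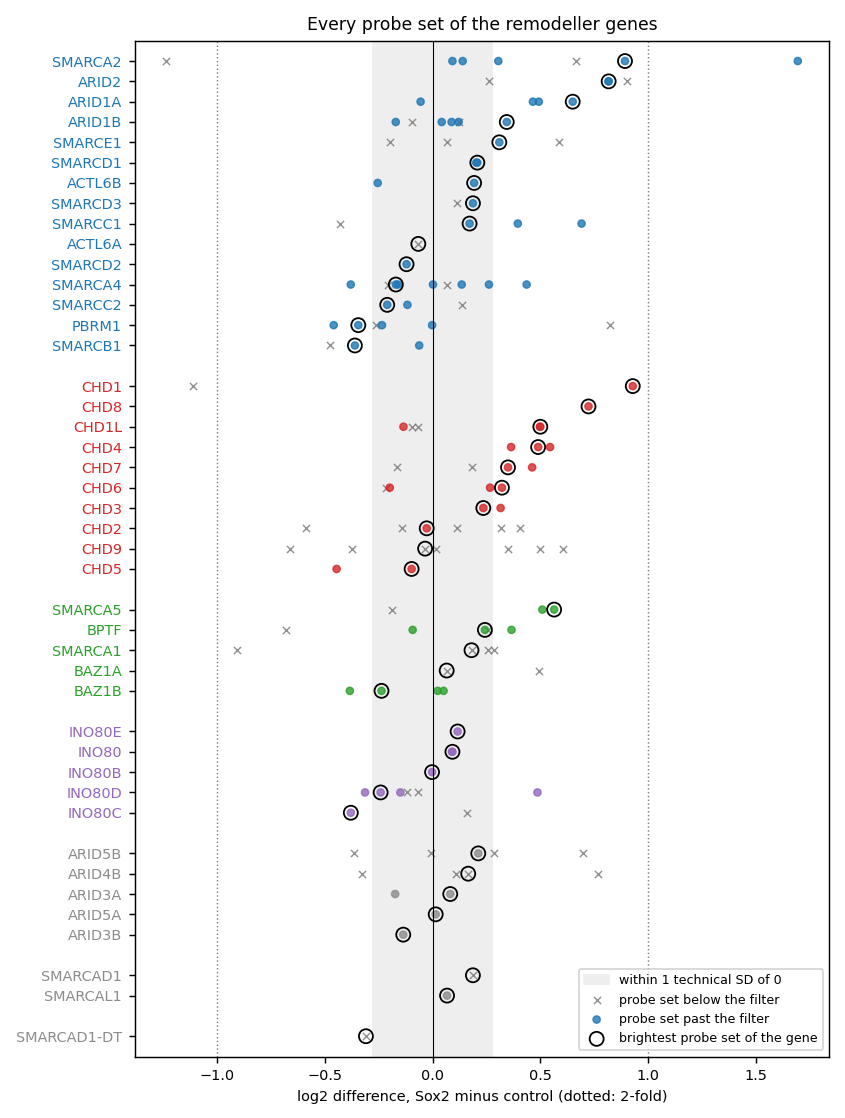
Log2 difference, Sox2 minus control, of all 141 probe sets of the 43 genes, with the brightest probe set of each gene ringed, probe sets below the filter as crosses, the band within 1 technical SD (0.28) of 0 in grey and 2-fold differences as dotted lines. The points of CHD4 and of the 2 ARID2 probe sets past the filter lie close together right of the band, while those of SMARCA4 and ARID1B spread across it.

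In ISWI, only 3 of 5 genes passed the filter. SMARCA5 (SNF2H), the ATPase of most ISWI complexes, read 254 and 172, 1.48-fold higher, and 46.5 and 32.7 by its second probe set past the filter. Both lay near 0.5 on the log2 scale (0.56 and 0.51), but the second passed through the Sox2 array alone and so had to be higher. The brightest SMARCA5 probe set has a name ending in _x_at. A dim SMARCA5 probe set, below the filter, went the other way at 12.43 and 14.15. BPTF, the large subunit of NURF that binds methylated histone tails, read 147 and 125 (0.24), with 0.37 and -0.092 by its other probe sets past the filter. BAZ1B (WSTF), a partner of SMARCA5, read 74.5 and 87.8 (-0.24), and its 4 probe sets were split evenly. A lower one, at 28.6 and 37.3, passed through the control array alone and so had to be lower. SMARCA1 (SNF2L), the other ISWI ATPase, read 29.9 and 26.4, and BAZ1A (ACF1) 12.2 and 11.6, both below the filter in both arrays. The group's median over the 3 genes was 0.24, and over all 5 it was 0.18.

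INO80 had the median nearest 0. Over its 5 genes it was -0.0023 on the log2 scale, with 2 above 0 and 3 below. INO80, the ATPase, read 652 and 611, and 51.2 and 48.1 by its second probe set, log2 differences of 0.092 and 0.090. The brighter INO80 probe set has a name ending in _x_at. The INO80 difference was -0.040 with lowess centring and -0.10 with quantile normalization. INO80B read 76.4 and 76.5, and INO80E 57.4 and 52.9. Both small subunits thus lay within the technical SD, each by the 1 probe set that names it alone. INO80C, another subunit of the complex, read 442 and 575 (-0.38), the lowest value of all 36 genes, while its dim second probe set read 22.9 and 20.5. INO80D read 129 and 153 (-0.24), with 3 of 4 probe sets past the filter lower and the other at 44.6 and 31.8. That other one, and a lower one at 30.3 and 37.6, each passed through 1 array alone and so had to differ that way.

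Outside these groups, no gene past the filter differed by more than the technical SD. ARID3A, a B-cell and stem-cell DNA-binding factor, read 74.6 and 70.5, ARID3B 64.9 and 71.3, ARID5A 85.8 and 84.9, and ARID5B 42.6 and 36.8. SMARCAL1, which restarts stalled replication forks, read 59.1 and 56.4. Below the filter, ARID4B read 25.9 and 23.1, SMARCAD1 24.3 and 21.4, and SMARCAD1-DT 8.21 and 10.2.

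Sorted by role, the enzymes had a higher median than the partner subunits. Of 14 ATPase genes past the filter, 11 (78.6%) lay above 0 with a median log2 difference of 0.34. Of 18 accessory subunits of the 4 groups, 10 (55.6%) lay above 0 with a median of 0.14. Of all genes past the filter 49.6% lay above 0. Without the filter the medians were 0.24 over 17 ATPase genes and 0.091 over 20 accessory subunits. The 14 include the 9 CHD genes past the filter and SMARCAL1, which is in none of the 4 groups. Their median genomic length was 89.9 kb for the 14 ATPases, beside 44.7 kb for the 18 accessory subunits. This division by role was made after the values were seen and was not tested.

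Second probe sets bear on how far single values can be read. Of the 36 genes, 13 had 1 probe set past the filter and 23 had 2 or more. In 9 of those 23 all probe sets past the filter were higher, in 4 all were lower and in 10 they were mixed. The shares of 39.1% and 17.4% stand beside 22.2% and 21.0% of the 5495 such genes on the array. Of the 83 probe sets past the filter, however, 13 reached it in 1 array alone and so had to differ. Among them were probe sets of ARID2, SMARCA5, SMARCC1, SMARCA2, SMARCA4, SMARCE1, CHD2, CHD5, PBRM1, BAZ1B, ARID3A and INO80D. With only probe sets that reached it in both arrays, 19 genes had 2 or more, of which 7 were all higher and 4 all lower, 36.8% and 21.1% beside 22.8% and 22.0% of 4598 genes. The 7 were SMARCA2, SMARCC1, SMARCD1, CHD3, CHD4, CHD7 and INO80, and the 4 were PBRM1, SMARCB1, SMARCC2 and INO80D. Counting dim probe sets as well, ARID2 and CHD4 were higher by all of at least 3 probe sets and SMARCB1 lower, out of 23 genes with that many, beside 10.3% and 8.88% of such genes on the array.

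Averaging all probe sets of a gene, rather than taking the brightest, gave lower medians. The median of the remodeller genes past the filter was then 0.065, that of SWI/SNF 0.065 and that of the CHD family 0.21. Fewer genes were measured, 29, of which CHD8, with its single probe set, was at least 1.5-fold higher. The averaged level of ARID2 fell under the filter, with its mean log2 difference still at 0.70. SMARCA2 gave 0.36, ARID1A 0.39 and CHD1 -0.090.

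**Figure D3:**
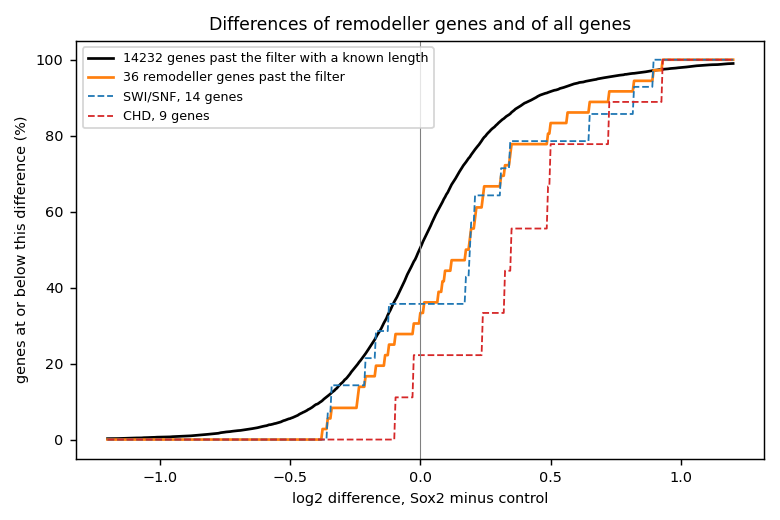
Share of genes (%) at or below each log2 difference, Sox2 minus control, for 14232 genes past the filter with a known length (black), the 36 remodeller genes past the filter (orange), and the SWI/SNF and CHD genes among them (dashed). The orange and red curves lie right of the black one around 0, with medians of 0.18 and 0.35, and none of the 36 genes lies beyond 1.

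The remodeller genes were long and many were read brightly, and the difference varied with both properties across the whole array. The median genomic length of the 36 genes was 73.0 kb, beside 24.4 kb for all genes past the filter. Over 14232 genes with a known length the Spearman rho of length with the log2 difference was 0.15, across genes, which are not independent replicates. At lengths over 100 kb, 11.5% of all genes were at least 1.5-fold higher, beside 2 of 13 remodeller genes, and under 10 kb 2.42% of all genes were, beside 0 of 2. Among all genes with a mean intensity over 150, 21.4% were at least 1.5-fold higher and 7.82% at least 1.5-fold lower, beside 3 and 0 of 12 remodeller genes. The robust SD of the differences across those bright genes was 0.49, wider than the technical SD of 0.28, and CHD1, CHD8 and ARID1A are among them.

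Of 920 genes on the array longer than 30 kb and with a mean intensity over 150, 36.2% were at least 1.5-fold higher, with a median log2 difference of 0.30. Of the 11 remodeller genes of that kind, 3 were at least 1.5-fold higher (CHD1, CHD8 and ARID1A), with a median of 0.34. Above 0 lay 70.4% of the 920 genes and 9 of the 11. Among 5375 equally long but dimmer genes 5.88% were at least 1.5-fold higher, beside 2 of 15 remodeller genes (SMARCA2 and ARID2), and the medians were 0.014 and 0.082. In this dimmer class 52.1% of all genes lay above 0, beside 9 of the 15. Of 1150 bright genes no longer than 30 kb, 46.5% lay above 0, with a median of -0.026, and the 1 remodeller gene among them, INO80C, read -0.38. Removing the trend with length left the median of the 36 genes at 0.16 and 5 genes at least 1.5-fold higher. Removing the trend with brightness by lowess centring moved the median to 0.12 and left 4, with ARID1A at 0.55. Each trend was removed on its own, so neither setting takes out what length and brightness do together.

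**Figure D4:**
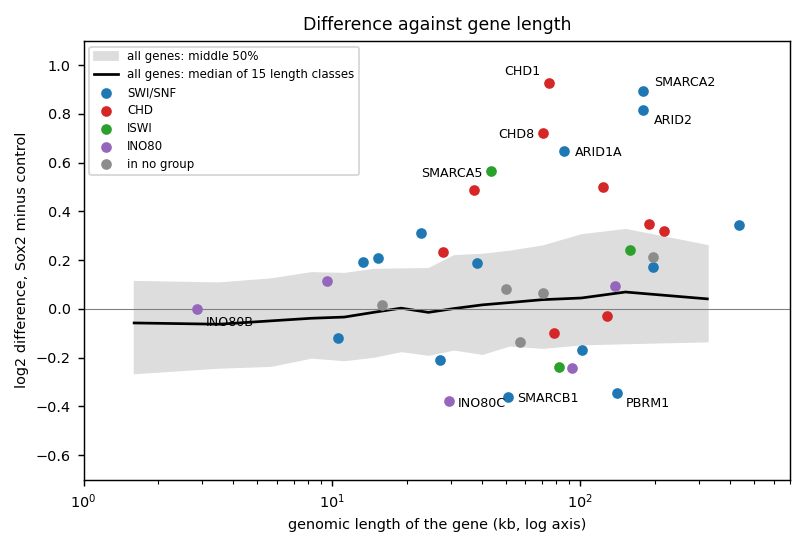
Log2 difference, Sox2 minus control, against genomic length (kb, log axis) for the 36 remodeller genes past the filter (points, coloured by group), with the median (line) and the middle 50% (band) of all genes in 15 length classes. The line of all genes climbs from below 0 for short genes to above 0 for long ones, and CHD1, SMARCA2, ARID2, CHD8 and ARID1A lie above the band at lengths from 70.9 to 178 kb.

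Promoter sequence was set beside the values because the study concerns a DNA-binding factor. Of the 43 genes, 32 matched an entry among the RefSeq promoters (GRCh38.p14). Shown are the 250 bases before the annotated start of the genes at least 1.5-fold higher that have an entry, and of SMARCB1, which was lower by all its probe sets, each 5′ to 3′ on the strand of the gene. Capitals mark matches, on either strand, to ACAAT (the core that SOX factors bind), CCAAT (the CCAAT box), GGGCGG (the GC box) or CCGGAAG (an ETS site). CHD1 lies on the minus strand at chr5:98929008-98929257, SMARCA2 on the plus strand at chr9:2015097-2015346 and CHD8 on the minus strand at chr14:21437276-21437525. ARID1A lies on the plus strand at chr1:26695765-26696014 and SMARCB1 on the plus strand at chr22:23786716-23786965.
CHD1: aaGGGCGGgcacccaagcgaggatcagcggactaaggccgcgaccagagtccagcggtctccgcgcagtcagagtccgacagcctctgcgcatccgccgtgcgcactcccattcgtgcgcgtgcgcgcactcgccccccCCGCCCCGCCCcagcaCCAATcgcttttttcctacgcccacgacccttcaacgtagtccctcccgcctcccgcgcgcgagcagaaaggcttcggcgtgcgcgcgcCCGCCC
SMARCA2: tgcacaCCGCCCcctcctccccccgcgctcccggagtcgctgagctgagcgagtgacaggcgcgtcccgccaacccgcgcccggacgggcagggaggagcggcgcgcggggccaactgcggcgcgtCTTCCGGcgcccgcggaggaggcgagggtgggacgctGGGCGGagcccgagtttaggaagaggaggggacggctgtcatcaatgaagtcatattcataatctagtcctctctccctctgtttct
CHD8: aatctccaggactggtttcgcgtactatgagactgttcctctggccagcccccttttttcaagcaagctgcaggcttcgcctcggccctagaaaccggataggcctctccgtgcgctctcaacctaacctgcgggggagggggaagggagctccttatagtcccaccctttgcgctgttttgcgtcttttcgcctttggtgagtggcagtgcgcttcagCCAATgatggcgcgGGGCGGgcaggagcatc
ARID1A: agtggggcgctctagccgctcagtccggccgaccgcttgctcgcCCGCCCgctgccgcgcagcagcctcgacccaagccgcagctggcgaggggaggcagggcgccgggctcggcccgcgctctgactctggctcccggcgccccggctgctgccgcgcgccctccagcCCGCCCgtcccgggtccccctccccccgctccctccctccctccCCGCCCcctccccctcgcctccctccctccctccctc
SMARCB1: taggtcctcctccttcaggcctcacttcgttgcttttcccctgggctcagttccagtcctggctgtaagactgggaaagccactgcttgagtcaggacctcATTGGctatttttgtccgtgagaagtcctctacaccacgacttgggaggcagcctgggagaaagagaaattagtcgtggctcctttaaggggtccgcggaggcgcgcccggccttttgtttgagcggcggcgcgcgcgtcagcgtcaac

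These windows differ mainly in GC boxes. CHD1 holds 4, of which 2 overlap by a base, ARID1A 3, SMARCA2 2, CHD8 1 and SMARCB1 0. A CCAAT box stands in CHD1, CHD8 and SMARCB1, and the ETS letters in SMARCA2. None of the 5 windows holds ACAAT, which 24.6% of all promoters hold.

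Over the 32 remodeller promoters, the GC box was present in 17, or 53.1%, beside 42.6% of all 35116 promoters of that length. The CCAAT box was present in 9 (28.1% beside 32.0%) and the ETS letters in 5 (15.6% beside 8.52%). ACAAT was present in 5 (15.6% beside 24.6%): INO80, INO80C, ACTL6B, ARID5A and SMARCAD1. None of these 5 was at least 1.5-fold different, beside 6.46% higher and 3.77% lower among all genes past the filter. With 5 genes, of which SMARCAD1 did not pass the filter, that count says little. The remodeller promoters had a median GC content of 64.6%, beside 58.0% of all promoters, and the share of windows holding a motif depends on base composition. A match says only that the letters are there.

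Partner subunits and related enzymes that the symbol rule does not reach were read from a separate list of 60 genes. Of these, 46 passed the filter, 0 were at least 2-fold higher and 1 was at least 2-fold lower, beside the 2.05% and 0.645% of all genes given above. At 1.5-fold, 4 were higher and 2 lower, beside 6.46% and 3.77%. Their median log2 difference was 0.0095, with 24 above 0 and 22 below. Their median genomic length was 43.2 kb, and the difference between their median and that of the remodeller genes was not tested.

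The gene that passed 2-fold was RBBP4, a histone-binding subunit of NuRD and other complexes, at 532 and 1136, 2.13-fold lower in the array labelled Sox2. Further RBBP4 probe sets that passed gave log2 differences of 0.15 and -0.12, so the value rests on 1 of 3. In NuRD the differences otherwise pointed both ways: GATAD2B read 480 and 340 (0.50), and MBD3 131 and 153, lower by all 3 of its probe sets. The 8 NuRD partners past the filter had a median of -0.10, and the enzymes CHD4, CHD3 and CHD5 read 0.49, 0.24 and -0.097.

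Elsewhere the largest difference of each complex among genes past the filter stayed under 2-fold. In SWI/SNF it was BRD7, a bromodomain subunit of PBAF, at 73.3 and 46.7 (1.57-fold higher). SS18L1, below the filter, read 6.09 and 3.05. In ISWI it was POLE3, a histone-fold subunit, at 24.1 and 40.5 (1.68-fold lower). POLE3 has 1 probe set, which passed the filter through the control array alone and so had to be lower. RSF1, the partner of SMARCA5, read 252 and 163 (1.55-fold higher) and BAZ2B 78.9 and 48.7 (1.62-fold higher). Further RSF1 probe sets that passed gave log2 differences of 0.66, 0.20 and -0.35. In the INO80, SRCAP and TIP60 complexes it was YY1, a zinc finger factor bound by INO80, at 1897 and 1135 (1.67-fold higher). Further YY1 probe sets that passed gave log2 differences of 0.82, 0.14 and -0.04. Among other SNF2 enzymes it was RAD54L2, at 795 and 1182 (1.49-fold lower), with log2 differences of 0.30 and -0.10 by further probe sets that passed. SHPRH, below the filter, read 6.42 and 9.79. In all, 5 of 7 genes of that list past the filter lay below 0, with a median of -0.19. ATRX, which deposits histone H3.3 with DAXX, was 1 of the 2 above 0, at 306 and 268.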

How the data were processed

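Both samples were read on an Affymetrix array with 54675 probe sets. The authors deposited linear probe set intensities, with RMA named per the submitters' processing notes and its version and settings not given in the sources used here. Once sorted, both columns still differ (by at most 1585), and which step made them so is unknown. Scanner files were not analysed here, and no detection calls were made. Probe sets were named from the platform annotation: 41091 name 1 gene, 1801 several and 11721 none. Intensities were taken to log2 as deposited, and the brightest probe set by mean log2 intensity stood for each gene. With 1 array per group no test was possible, so genes were counted past 2-fold and 1.5-fold. Lengths came from RefSeq (GRCh38.p14), matched by gene ID for 19735 genes. Precision is limited by the number of arrays.

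The genes and lists were chosen with earlier results of these data known. Named were SOX2, every gene of the symbol rule and, of each outside list, genes past 2-fold or else the largest difference; others named from those lists were chosen after their values were seen. Counting was tested on simulated data with noise of a chosen size, not taken from these arrays, so it checks the counting steps alone. Alternatives covered the choice of probe set, the filter, the scaling, a pseudocount of 16, the size counted and gene length (lowess span 0.3). Python 3.11.15, numpy 2.4.6, pandas 2.3.3, SciPy 1.17.1, statsmodels 0.14.6 and matplotlib 3.10.9 were used.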

Additional observations from a re-analysis of the deposited data

Results flagged for a closer look

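A signal lay outside the probe sets used: a probe set that names both ARID4B, a subunit of a histone deacetylase complex, and RBM34, a neighbouring RNA-binding gene, read 225 in the Sox2 array against 127 in the control array (log2 difference 0.83). The other probe set that names both genes read 4.91 and 8.16, and the 4 probe sets that name ARID4B alone did not pass the filter. Only higher values were flagged. Probe sets that name INO80B together with INO80B-WBP1 gave log2 differences of -0.48 (40.49 and 56.55), -0.29 (67.2 and 82.2) and 0.082 (86.1 and 81.3).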

How the results depend on the processing

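No remodeller gene reached 2-fold in either direction under the main setting or under any of the 9 alternatives to the values. At 1.5-fold, 5 were higher and 0 lower. The number at least 1.5-fold higher was 1 of 29 measured with all probe sets averaged (ARID2 fell under the filter with a mean of 0.70). It was 3 of 28 when probe sets named _x_at or _s_at were left out. ARID1A then had no value, and SMARCA2 fell under the filter at 4.25 and 10.0, lower in the array labelled Sox2. Under the other alternatives the number higher was between 4 and 5. The number lower was 1 with quantile normalization (INO80C). These counts were added after seeing the data. The median of the remodeller genes was 0.065 with averaged probe sets, 0.12 with lowess centring and 0.097 with quantile normalization, against 0.18. With averaged probe sets the CHD median was 0.21 and the SWI/SNF median 0.065, and no outside subunit reached 2-fold (0). With _x_at and _s_at probe sets left out the INO80 median was -0.24 over 3 genes and that of the outside subunits -0.044. Of the 36 genes, 28 kept their sign under every alternative in which they had a value past the filter. The 8 others were ACTL6B, ARID3A, BAZ1B, CHD1, INO80, INO80B, SMARCA4 and SMARCC1. Over all genes, 292 were at least 2-fold higher and 92 lower. The numbers were 63 and 43 with averaged probe sets, 172 and 61 with _x_at and _s_at probe sets left out, and 921 and 537 at 1.5-fold. The number lower was 48 with log2(value + 16) and 177 with no filter. The cause was not tested. No paired analysis was possible because each group has 1 array, and leaving out an array leaves no comparison.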
